A study of Homo sapiens with 36 samples.

Results

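HEK293T cells, a human embryonic kidney line, that lack their own TXNL1 (TXNL1 KO) and express WT TXNL1 from a lentiviral vector were compared after arsenite and without it. The comparison holds 6 of the 36 libraries of the series, 3 from arsenite-treated and 3 from untreated cells. The libraries were assigned to groups by their labels, and the comparison was chosen with earlier results of these data known. The knockout is shared by all 4 lines of the series, which otherwise carry an empty vector, WT TXNL1, TXNL1 D162R R234D that is deficient in proteasome binding, or TXNL1 SxxS with a mutated thioredoxin active site. Per the study's methods, arsenite was used at 100 µM for 6 h, and per the labels the untreated cells received the solvent DMSO. Knockout cells were grown from single sorted cells, and TXNL1 was put back in a vector with a CMV promoter. Messenger RNA was sequenced as 100-base read pairs. Per the study's methods the cells were treated in triplicate in multiwell plates. Neither the labels nor the methods name separate passages or days, so p-values measure the spread between libraries. That spread was estimated over all 36 libraries, those of cells treated with hydrogen peroxide included.

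Arsenite binds pairs of neighbouring cysteine thiols and thereby disturbs thioredoxins, zinc-binding proteins and newly made proteins. Cells are known to answer along several routes. HSF1 induces chaperones when proteins unfold, NRF2 (encoded by NFE2L2) escapes KEAP1 and induces antioxidant enzymes, MTF1 induces metallothioneins when zinc is set free, and ATF4 is translated when eIF2α is phosphorylated. TXNL1 is a thioredoxin-like protein that binds the regulatory particle of the proteasome, and the WT line was used by the study to follow its protein under arsenite. Protein was not analysed here.

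Levels below are counts-per-million (CPM) on library sizes scaled by TMM. Fold changes are on the log2 scale with their standard error (SE). The value without arsenite replicate 1 follows in brackets or in words, and it is marked where its call differs. The quasi-likelihood test of edgeR was run on 22486 genes, and those with an adjusted p below 0.05 are named as called. Untreated libraries held 42072410 to 65958385 counts, and arsenite replicates 1, 2 and 3 held 174119002, 42508758 and 94479028. Arsenite replicate 1 stood apart before any comparison. Its log2 CPM differed from the median of its group with an SD of 0.530 over 12043 genes, beside 0.0708 to 0.0950 in the other 5 libraries. The difference moved with transcript length. Among protein-coding genes in the quintile with the shortest transcripts, replicate 1 lay a median of 0.44 log2 units above the mean of arsenite replicates 2 and 3. In the quintile with the longest transcripts it lay at -0.58. No untreated library departed from its group by more than 0.0926 in any quintile. Each result is therefore given with all 3 arsenite libraries and, where so stated, without replicate 1. The part of this length difference in any single result was not tested.

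**Figure D1:**
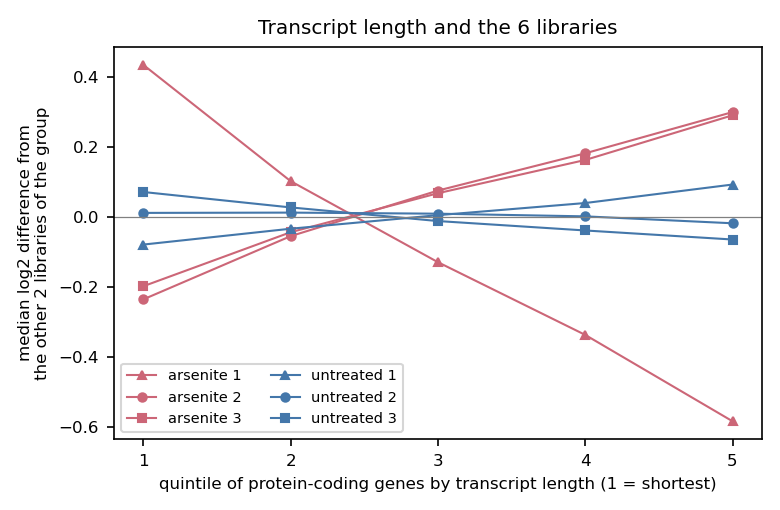
Median log2 CPM of each WT library minus the mean of the other 2 libraries of its group (y axis), in quintiles of protein-coding genes ordered by the length of the longest transcript (x axis). Arsenite replicate 1 runs from 0.44 in the shortest quintile to -0.58 in the longest, while the untreated libraries stay within 0.0926 of 0.

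With all libraries 6458 genes were called higher and 5602 lower after arsenite, which is 28.7% and 24.9% of the genes tested. Without replicate 1 the counts were 4942 and 4676, or 22% and 20.8%. Both fits called 8814 genes (39.2%) in the same direction, 19.7% higher and 19.5% lower, and 0 genes in opposite directions. Of these, 1209 (5.38%) were at least 2-fold higher in both fits and 1111 (4.94%) at least 2-fold lower. The 2019 genes that were called higher with all libraries and lost their call without replicate 1 had a median transcript of 1754 bases, beside 2836 bases for genes higher in both fits. The 1227 that were lower in that way had a median of 4431 bases, beside 4201 for genes lower in both fits. The number of calls also followed the spread shared with the other groups. It was 11902 when WT hydrogen peroxide replicate 2 was left out together with arsenite replicate 1, and 13227 when only that peroxide library was left out. All 3 arsenite libraries lay above all 3 untreated ones for 27.8% of tested genes and below them for 26%. With 53.6% of the tested genes called, or 42.8% without replicate 1, a share of called members near these percentages is no property of a list.

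**Figure D2:**
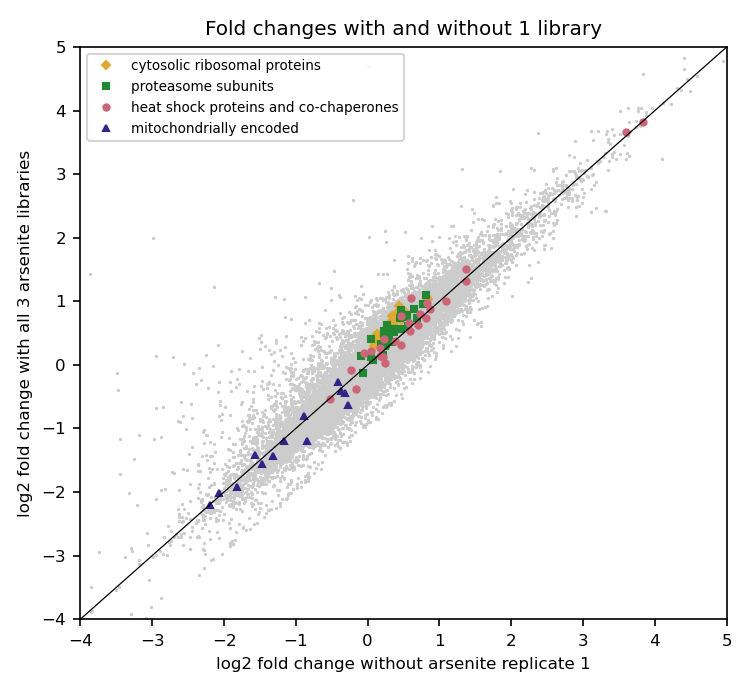
Log2 fold change of every tested gene with all 3 arsenite libraries (y axis) against the value without arsenite replicate 1 (x axis), with 4 gene lists in colour and the line of equal values in black. Most ribosomal protein and proteasome genes lie above the line, most mitochondrially encoded and heat shock genes lie near it, and 44 genes lie outside the axes, HSPA6 among them.

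TXNL1 mRNA rose. The gene, ENSG00000091164, chr18:56597209-56651600 on the minus strand, shares exon bases with WDR7 on the opposite strand, so its counts carry that uncertainty. It was measured at 53.1, 52.1 and 58.0 CPM in the untreated libraries and 107, 97.2 and 97.2 CPM after arsenite. Every arsenite library lay above every untreated one, and replicate 1 was close to the others. The log2 fold change was 0.89 ± 0.06, with an edgeR adjusted p of 1.7e-13, and 0.84 without replicate 1. In the vector line, where only the mutated endogenous locus is transcribed, TXNL1 mRNA stood at 30.6 ± 1.77 CPM untreated and 69.3 ± 2.19 CPM after arsenite (SD, n = 3). Reads of the introduced and the endogenous gene cannot be told apart in these counts. The difference between the rises, WT minus vector, was -0.29 ± 0.08 log2 units and did not pass the interaction test over all genes (edgeR adjusted p of 0.55).

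Chaperone genes gave the largest single change. Of 28 listed heat shock proteins and co-chaperones 27 were tested, and 18 rose, 1 fell and 8 did not pass. Without replicate 1 the numbers were 18, 2 and 7. The median log2 fold change of the list was 0.62, and 0.57 without replicate 1, beside 0.07 and 0.06 over all genes tested. Heat shock factor binds inverted repeats of the bases GAA. In the 250 bases before the RefSeq transcription start (GRCh38.p14), the cores GAA, TTC and GAA in a row with any 2 bases between neighbours, or the reverse complement of this motif, occurred in 120 of 27305 promoters (0.439%). It was found in 5 of the 25 list members that have a RefSeq promoter. They are shown because 4 of these genes rose and HSPA8 fell. DNAJB1, BAG3 and HSPH1, which rose as given below, held no match in these bases. Whether the motif goes with the changes was not tested. Capitals mark every match, and overlapping matches run together.

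HSPA6, chr1:161524290-161524539, plus strand: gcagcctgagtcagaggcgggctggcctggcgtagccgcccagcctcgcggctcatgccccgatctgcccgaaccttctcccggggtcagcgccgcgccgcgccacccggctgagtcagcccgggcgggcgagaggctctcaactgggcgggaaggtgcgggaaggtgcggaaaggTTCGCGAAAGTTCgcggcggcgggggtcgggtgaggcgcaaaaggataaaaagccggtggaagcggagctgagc
CHORDC1, chr11:90223050-90223299, minus strand: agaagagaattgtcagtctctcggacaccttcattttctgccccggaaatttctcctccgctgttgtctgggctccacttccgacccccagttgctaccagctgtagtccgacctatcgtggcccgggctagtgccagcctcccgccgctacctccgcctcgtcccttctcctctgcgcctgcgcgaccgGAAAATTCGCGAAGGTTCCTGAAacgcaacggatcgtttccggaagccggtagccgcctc
SERPINH1, chr11:75562003-75562252, plus strand: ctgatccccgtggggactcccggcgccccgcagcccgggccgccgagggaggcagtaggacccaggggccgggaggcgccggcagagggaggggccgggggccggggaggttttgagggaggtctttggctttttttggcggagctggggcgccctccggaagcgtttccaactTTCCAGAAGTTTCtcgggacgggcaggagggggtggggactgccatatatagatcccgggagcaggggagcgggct
DNAJB6, chr7:157336754-157337003, plus strand: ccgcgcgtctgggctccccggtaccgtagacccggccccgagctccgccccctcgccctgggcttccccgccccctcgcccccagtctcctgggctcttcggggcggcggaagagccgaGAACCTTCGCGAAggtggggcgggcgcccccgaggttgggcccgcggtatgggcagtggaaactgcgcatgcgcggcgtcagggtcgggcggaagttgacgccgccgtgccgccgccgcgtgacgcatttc
HSPA8, chr11:123062137-123062386, minus strand: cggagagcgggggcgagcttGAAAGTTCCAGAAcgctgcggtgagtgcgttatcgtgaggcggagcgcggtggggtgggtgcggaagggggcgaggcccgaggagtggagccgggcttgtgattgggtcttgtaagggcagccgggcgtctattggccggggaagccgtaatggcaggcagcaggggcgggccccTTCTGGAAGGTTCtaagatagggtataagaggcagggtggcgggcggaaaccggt

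HSPA6, a strictly inducible HSP70 (ENSG00000173110, chr1:161524540-161526894 on the plus strand), was measured at 1.77, 0.808 and 0.969 CPM in the untreated libraries and at 925, 631 and 611 CPM after arsenite. The groups were far apart, and replicate 1 was the highest of the arsenite libraries. The log2 fold change was 9.23 ± 0.48 with an edgeR adjusted p of 1.1e-15, and 9.01 without replicate 1. Its promoter above holds 1 match, close to the start. CHORDC1, a co-chaperone of HSP90, has 3 overlapping matches and rose from 157, 155 and 138 to 225, 271 and 258 CPM, a log2 fold change of 0.74 ± 0.08 (0.82). SERPINH1, which assists collagen folding in the endoplasmic reticulum, rose by 1.505 ± 0.10 (1.37) from 77.7 ± 2.41 to 220.5 ± 35.0 CPM. DNAJB6, an HSP40, rose by 1.01 ± 0.06 (1.08). HSPA8, the constitutive HSP70, holds 2 matches. It was measured at 3647, 3904 and 3934 CPM untreated and 2577, 2691 and 2629 CPM after arsenite. All arsenite libraries lay below all untreated ones, with a log2 fold change of -0.54 ± 0.05 and -0.53 without replicate 1. HSPA8 was also the largest fall in CPM by the rule for named genes.

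The other inducible chaperones were uneven. DNAJB1, the HSP40 that delivers clients to HSP70, went from 292, 301 and 322 CPM to 4209, 3719 and 3683 CPM, the largest gain in CPM by that rule. BAG3, a nucleotide exchange factor of HSP70, went from 58.4, 55.7 and 59.7 to 813, 842 and 808 CPM. Neither gene overlapped between the groups, and their log2 fold changes were 3.66 ± 0.07 (3.60) and 3.82 ± 0.06 (3.83). HSPA1A and HSPA1B, the classical stress-inducible HSP70 pair, were not called. HSPA1A stood at 217, 208 and 378 CPM untreated and 378, 256 and 296 CPM after arsenite, and HSPA1B at 1336, 1302 and 1429.8 and 1526, 1158 and 1156 CPM. The groups overlapped in both genes. The pair is almost identical in sequence, so reads may be split between them in ways the sources used here do not state. Their log2 fold changes were 0.21 ± 0.25 (0.044) and -0.08 ± 0.09, and without replicate 1 HSPA1B was called lower at -0.23.

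HSPH1, an HSP70 exchange factor, rose by 1.32 ± 0.07 (1.38) and AHSA1, an activator of HSP90, by 0.97 ± 0.09 (0.82). HSP90AA1, the inducible HSP90, was at 3220.1, 3497 and 3244 CPM untreated and 7863, 4532 and 4605 CPM after arsenite. Replicate 1 was far above the other arsenite libraries, and the log2 fold change of 0.77 ± 0.13 was 0.46 without it. HSP90AB1, the constitutive HSP90, changed by 0.80 ± 0.06 with all libraries and by 0.73 without replicate 1. HSPB1, a small heat shock protein, changed by 1.06 ± 0.20 and, without replicate 1, by 0.60. CRYAB, another small heat shock protein, fell under the filter of at least 10 counts in untreated vector cells and was not tested. It had 2 counts over the 3 untreated libraries and 240, 48 and 101 counts in arsenite replicates 1, 2 and 3. HSF1 itself changed by 0.26 ± 0.09, a call that was lost without replicate 1 at 0.17 and under an offset for GC content at -0.030.

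**Figure D3:**
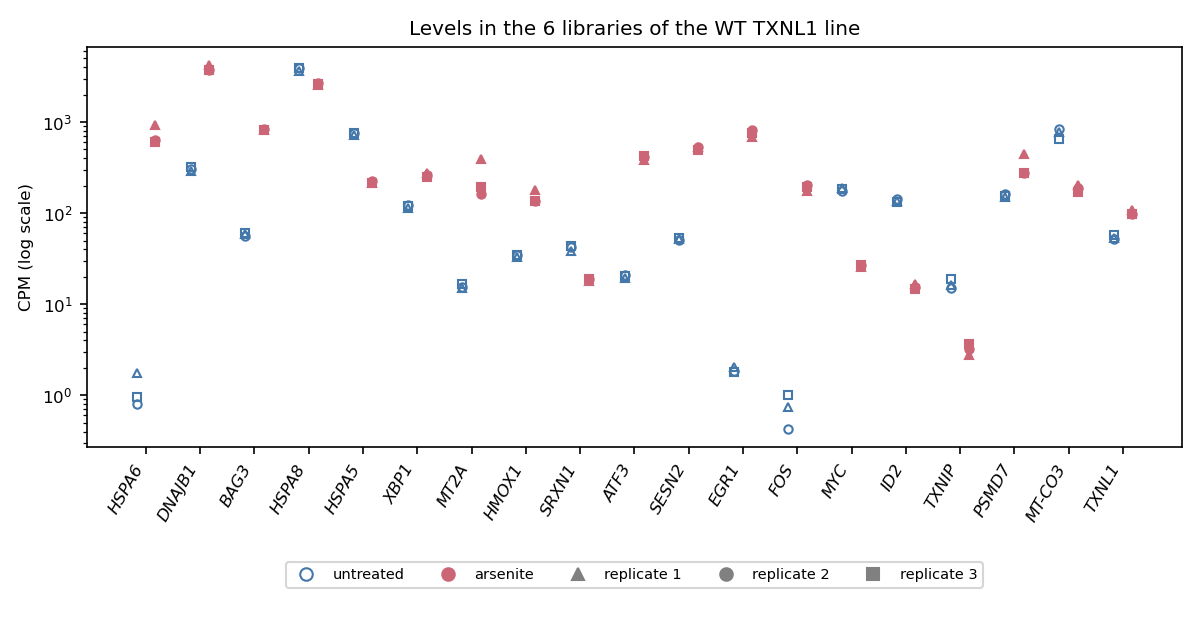
CPM on a log scale (y axis) for 19 genes named in the text (x axis) in each of the 6 WT libraries, with open blue symbols for untreated and filled red symbols for arsenite libraries, and a triangle, circle and square for replicates 1, 2 and 3. The groups separate for every gene drawn. The triangle of arsenite replicate 1 lies above the other arsenite symbols most clearly for HSPA6, MT2A, HMOX1 and PSMD7. It lies above them by less for other genes, DNAJB1, XBP1 and TXNL1 among them.

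Metallothioneins are small cysteine-rich proteins that bind zinc and other metals, and MTF1 recognises metal response elements in their promoters. Of 10 listed genes 5 were tested, 4 of which rose and 1 of which, MTF1, fell. The median log2 fold change was 1.52, and 1.59 without replicate 1. TGCACNC or TGCGCNC occurred on either strand in 24.7% of the 27305 promoters, so a match of so short a motif is frequent. Among the list members with a RefSeq promoter, 4 of 5 held it. The 3 of these whose genes were tested are shown, with every match in capitals.

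MT2A, chr16:56608334-56608583, plus strand: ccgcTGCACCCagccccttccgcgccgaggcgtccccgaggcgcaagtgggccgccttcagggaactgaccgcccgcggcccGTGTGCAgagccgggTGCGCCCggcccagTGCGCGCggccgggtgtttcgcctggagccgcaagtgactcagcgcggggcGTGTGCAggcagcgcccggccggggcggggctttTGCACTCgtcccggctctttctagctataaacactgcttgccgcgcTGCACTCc
MT1X, chr16:56682220-56682469, plus strand: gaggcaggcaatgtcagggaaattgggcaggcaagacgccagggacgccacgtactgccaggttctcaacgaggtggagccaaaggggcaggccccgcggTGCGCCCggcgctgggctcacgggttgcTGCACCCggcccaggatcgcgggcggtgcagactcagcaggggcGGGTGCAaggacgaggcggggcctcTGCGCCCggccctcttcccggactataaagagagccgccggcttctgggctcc
SLC30A1, chr1:211579162-211579411, minus strand: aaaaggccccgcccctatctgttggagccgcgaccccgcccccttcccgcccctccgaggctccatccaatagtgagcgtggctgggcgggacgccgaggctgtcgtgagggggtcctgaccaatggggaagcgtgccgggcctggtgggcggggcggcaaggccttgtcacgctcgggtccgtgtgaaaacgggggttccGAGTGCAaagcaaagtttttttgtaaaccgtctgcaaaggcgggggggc

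MT2A, with 7 matches, was at 15.1, 15.5 and 16.5 CPM in untreated cells and 389.8, 163 and 195 CPM after arsenite. Replicate 1 was the highest library, and even the lowest arsenite library lay far above the untreated ones. The log2 fold change was 3.99 ± 0.29 with all libraries and 3.51 without replicate 1. MT1X, with 4 matches, went from 12.9, 15.4 and 16.1 to 253, 113 and 147 CPM, with log2 fold changes of 3.53 ± 0.23 and 3.14. MT1F, the other metallothionein tested, rose from 1.78 ± 0.401 to 5.09 ± 1.81 CPM. Metallothionein genes are close relatives, and how reads shared by them were counted is not given in the sources used here. SLC30A1, a zinc exporter with a long transcript and 1 match, rose by 1.44 ± 0.16 and by 1.59 without replicate 1. MT1A had 2 counts over the untreated libraries and 77 over the arsenite libraries and was not tested. MTF1 fell from 23.0, 23.6 and 22.6 to 16.2, 16.6 and 17.6 CPM, a log2 fold change of -0.46 ± 0.11 (-0.43). An offset for transcript length, added after the data had been seen, left -0.045 for MTF1 and no call, and MTF1 was not called in the other 3 lines.

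Immediate early genes, which are transcribed within minutes of a stimulus without new protein, were split into strong rises and strong falls at 6 h. Of 31 listed genes 30 were tested, 19 rose, 8 fell and 3 did not pass. Without replicate 1 the counts were 18, 8 and 4, and the median was 1.10 with and 1.12 without it. EGR1, a zinc finger transcription factor (ENSG00000120738, chr5:138465479-138469303 on the plus strand), was at 2.05, 1.85 and 1.82 CPM untreated and 681, 823 and 761 CPM after arsenite. FOS, a subunit of AP-1, was at 0.740, 0.428 and 0.999 CPM untreated and 175, 204 and 193 CPM after arsenite. Both genes were close to silent in untreated cells and lay far above that in all 3 arsenite libraries. Their log2 fold changes were 8.63 ± 0.34 (8.70) and 7.98 ± 0.24 (8.04), with edgeR adjusted p of 1.7e-18 and 3.8e-21. JUN, the partner of FOS, rose from 92.9, 88.0 and 88.3 to 841, 842 and 803 CPM and FOSB by 4.10 ± 0.14 (4.23). JUND rose by 1.71 ± 0.20 (1.46), whereas JUNB fell, at -0.55 ± 0.16 (-0.81), a call that was lost without arsenite replicate 3 at -0.37. The AP-1 subunits thus moved in both directions.

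Phosphatases that switch off MAP kinases moved in both directions. DUSP1 went from 16.6, 18.1 and 20.0 to 110.2, 115 and 104 CPM and DUSP8 rose by 3.74 ± 0.12 (3.74), while DUSP2 fell, at -1.86 ± 0.14 (-2.01). The GADD45 genes, stress sensors upstream of p38 and JNK, all rose, with log2 fold changes of 1.08 ± 0.12 (0.92) for GADD45A, 3.51 ± 0.13 (3.34) for GADD45B and 4.12 ± 0.66 (4.12) for GADD45G, the last from 0.0374 ± 0.00899 to 0.668 ± 0.118 CPM. MYC, a driver of growth genes, was the most abundant gene of the list that fell. It was at 187, 177 and 185 CPM untreated and 25.6, 26.99 and 26.8 CPM after arsenite. The 3 libraries of each group were tightly grouped and did not overlap, with a log2 fold change of -2.79 ± 0.05 and -2.77 without replicate 1. IER5 changed by -2.10 ± 0.08 (-2.10), KLF6 by -1.31 ± 0.14 (-1.69) and KLF4 by -0.88 ± 0.11 (-0.998). MAFF, a small MAF protein outside the list that pairs with NRF2 and other factors, rose from 1.02, 0.926 and 1.41 to 14.3, 14.9 and 16.7 CPM. GCM1, a placental transcription factor, rose from 0.103, 0.143 and 0.0908 to 8.94, 14.2 and 12.2 CPM, and NHLH1, a neuronal one, from 0.344, 0.499 and 0.257 to 7.94, 8.67 and 8.36 CPM.

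Most ATF4 targets rose. Of 19 tested genes of 20 listed, 15 rose, 3 fell and 1 did not pass, both with and without replicate 1, and the medians were 0.84 and 0.80. ATF3, a repressor of the same pathway, was at 19.4, 20.8 and 20.5 CPM untreated and 388, 414 and 419 CPM after arsenite. SESN2, which restrains mTORC1 when amino acids are short, was at 51.6, 50.6 and 53.5 CPM untreated and 532, 531 and 499 CPM after arsenite. In both genes the arsenite libraries were all alike, replicate 1 included, and far from the untreated ones. Log2 fold changes were 4.33 ± 0.07 (4.36) for ATF3 and 3.33 ± 0.06 (3.31) for SESN2. PPP1R15A, the subunit that dephosphorylates eIF2α, rose by 2.74 ± 0.08 (2.70), DDIT3, which encodes CHOP, by 2.71 ± 0.19 (2.41) and DDIT4, an mTORC1 inhibitor, by 2.82 ± 0.18 (2.77). CTH, which makes cysteine from cystathionine, went from 17.5, 18.2 and 18.7 to 117, 123 and 123 CPM, and CHAC1, which degrades glutathione, changed by 2.35 ± 0.17 (2.32). SLC3A2, the heavy chain of the cystine and leucine exchangers, went from 160.1, 169 and 169 to 984, 744 and 751 CPM. SLC7A5, a light chain that pairs with it, fell, at -0.30 ± 0.07 (-0.20). Serine and asparagine synthesis moved less, with 0.63 ± 0.11 (0.47) for PHGDH, 0.37 ± 0.07 (0.48) for PSAT1 and 0.84 ± 0.06 (0.80) for ASNS. With the transcript length offset PSAT1 was not called at 0.23. ATF4 mRNA changed by 0.51 ± 0.12, and by 0.32 without replicate 1.

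Genes of the unfolded protein response in the endoplasmic reticulum went mostly the other way. Of 15 tested genes 2 rose, 8 fell and 5 did not pass, with the same counts without replicate 1 and medians of -0.29 and -0.25. HSPA5, the chaperone BiP that is the usual marker of this response, was at 727, 754 and 768 CPM untreated and 213, 226 and 211 CPM after arsenite. All arsenite libraries were near each other and below all untreated ones, with a log2 fold change of -1.79 ± 0.05 (-1.78) and an edgeR adjusted p of 1.2e-21. SEL1L, a part of the ubiquitin ligase complex that clears misfolded proteins from the endoplasmic reticulum, was at 62.5, 60.04 and 57.2 CPM untreated and 11.6, 26.1 and 22.7 CPM after arsenite. Replicate 1 was the lowest here, and the log2 fold change of -1.58 ± 0.22 became -1.30 without it. DNAJB9 and DNAJC3, co-chaperones of BiP, changed by -1.26 ± 0.13 (-1.07) and -0.95 ± 0.15 (-0.78), HSP90B1 by -0.38 ± 0.06 (-0.48) and PDIA4 by -0.51 ± 0.06 (-0.47). The call of HSP90B1 was lost with the GC offset at -0.14 and with the transcript length offset at -0.037. The 2 that rose were XBP1, a transcription factor of this response, from 114, 124 and 119 to 277, 259 and 249.7 CPM, and HERPUD1, a ligase adaptor, by 0.51 ± 0.06 (0.47). The files count reads per gene and say nothing of XBP1 splicing.

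**Figure D4:**
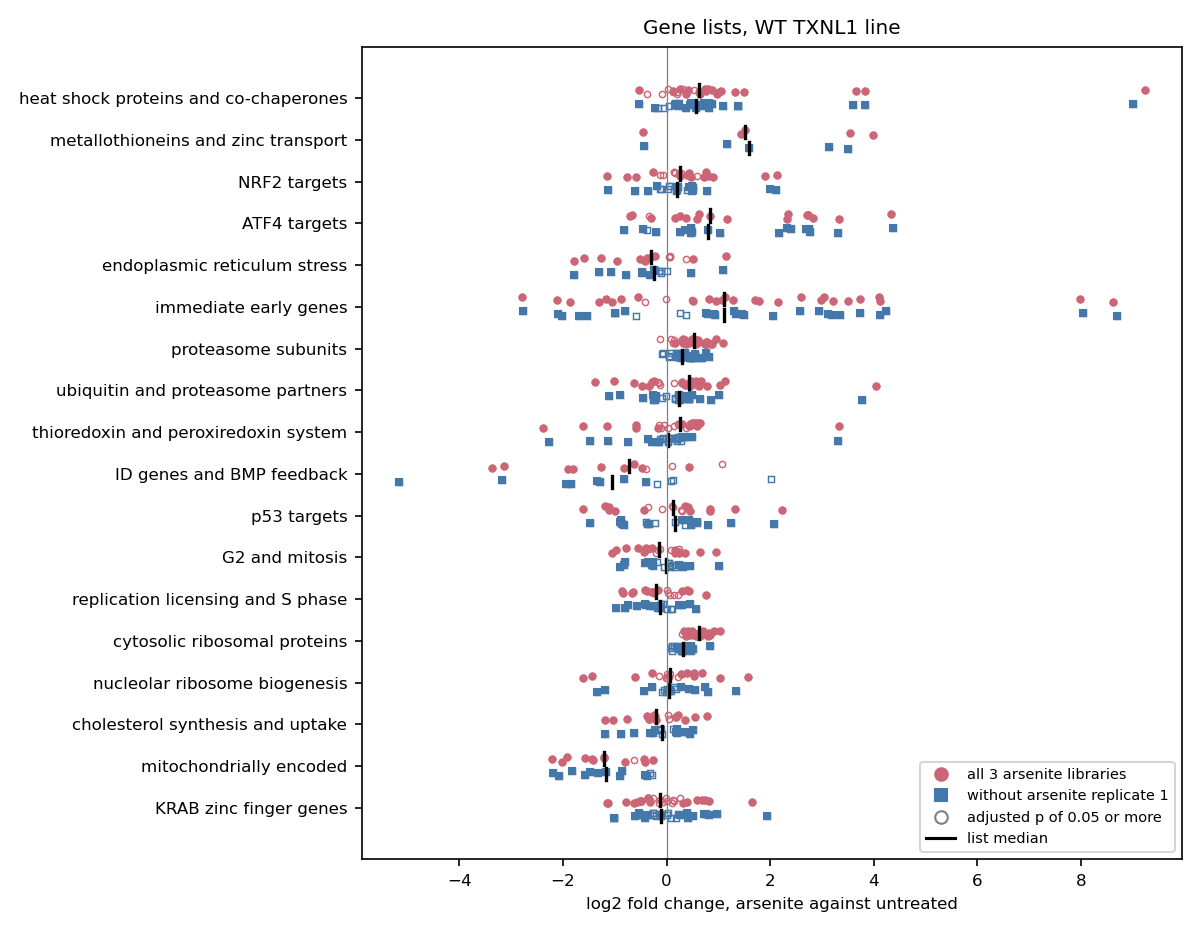
Log2 fold change of each tested member of 18 gene lists (x axis; y axis, lists) with all 3 arsenite libraries (red circles) and without arsenite replicate 1 (blue squares), filled where the adjusted p was under 0.05, with list medians as black bars. Ribosomal protein and proteasome medians move from 0.62 to 0.32 and from 0.53 to 0.30 without that library, while ATF4 target and mitochondrial medians go from 0.84 to 0.80 and from -1.20 to -1.16.

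NRF2 targets moved in both directions. Of 22 tested genes of 24 listed, 10 rose, 4 fell and 8 did not pass with all libraries, and 9, 4 and 9 without replicate 1. Of all tested genes 28.7% rose and 24.9% fell, or 22% and 20.8% without replicate 1. The share of the list that fell was thus no higher than that of all genes. The medians were 0.27 and 0.20. HMOX1, the heme oxygenase that several stress factors induce (ENSG00000100292, chr22:35380361-35394214 on the plus strand), was at 33.1, 34.5 and 34.8 CPM untreated and 177, 135 and 137 CPM after arsenite. The arsenite libraries all lay well above the untreated ones, with a log2 fold change of 2.13 ± 0.11 and 1.99 without replicate 1. SQSTM1, the autophagy receptor p62, rose by 0.90 ± 0.09 (0.79) and the ferritin chain FTL by 0.76 ± 0.15 (0.50). ABCC2, a conjugate exporter, rose by 1.90 ± 0.33 (2.11) at no more than 2.28 CPM. Several genes of thiol metabolism were lower or not called. SRXN1, which reduces overoxidised peroxiredoxins, was at 38.8, 42.1 and 43.3 CPM untreated and 18.04, 18.8 and 18.8 CPM after arsenite. All arsenite libraries were lower than all untreated ones, with a log2 fold change of -1.16 ± 0.06 (-1.14). GCLC, the catalytic subunit for glutathione synthesis, changed by -0.76 ± 0.11 (-0.60) and its partner GCLM by -0.13 ± 0.08 (-0.13), the latter without a call. TXNRD1, thioredoxin reductase, changed by -0.59 ± 0.14, and by -0.36 without replicate 1. NQO1 was at 6.07 ± 0.179 CPM untreated and 6.66 ± 0.889 CPM after arsenite and was not called. NFE2L2 mRNA rose from 49.7, 50.3 and 51.1 to 105, 124 and 115 CPM, and KEAP1 was not called at -0.22 ± 0.11 although it was called lower without replicate 1 at -0.38.

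The calls of the thioredoxin and peroxiredoxin list depended on which libraries the fit held. Of 27 tested genes 12 rose and 6 fell with all libraries, whereas 4 rose and 7 fell without replicate 1, and the median went from 0.26 to 0.04. Beside these counts, 28.7% of all tested genes rose and 24.9% fell, or 22% and 20.8% without replicate 1. In both fits the share of the list that fell was not far from that of all genes. When the fit held the WT libraries only and left out replicate 1, 11 rose and 8 fell. Without both arsenite replicate 1 and WT hydrogen peroxide replicate 2, 11 rose and 9 fell. TXN, thioredoxin itself, was at 251, 262 and 286 CPM untreated and 507, 295 and 309 CPM after arsenite. Replicate 1 stood far above while replicates 2 and 3 lay just above the untreated libraries, and the call at 0.48 ± 0.15 was lost at 0.18. PRDX2, PRDX5, GPX1 and GPX4 also lost their calls in that way. The 4 that rose in the fit of all groups, both with and without replicate 1, were SESN2, GLRX, TXNDC9 and SOD1. TXNIP, an inhibitor of thioredoxin, fell from 16.4, 15.2 and 18.7 to 2.77, 3.26 and 3.65 CPM. All arsenite libraries lay far below the untreated ones, with a log2 fold change of -2.38 ± 0.09 and -2.27 without replicate 1. SESN1, a sestrin under p53, fell, at -1.61 ± 0.10 (-1.48), while its relative SESN2 rose.

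Most proteasome subunit genes rose. Of 33 genes, all tested, 28 rose, 0 fell and 5 did not pass with all libraries, and 23 rose and 10 did not pass without replicate 1. The median log2 fold change was 0.53 with all libraries and 0.30 without that library. A fit of the 6 libraries alone called 13 higher, or 28 without replicate 1. The summed level of the list was 5819 to 6364 CPM untreated and 10904, 7751 and 7919 CPM in arsenite replicates 1, 2 and 3. PSMD7, a lid subunit (ENSG00000103035, chr16:74296814-74306288 on the plus strand), showed the largest change, from 152, 161.8 and 156 to 451, 275 and 275 CPM. Replicate 1 lay above the other arsenite libraries, which themselves lay above every untreated one, and the log2 fold change was 1.09 ± 0.12 and 0.81 without it. ADRM1, a ubiquitin receptor of the regulatory particle, rose by 0.95 ± 0.13 (0.77), PSMD13 by 0.87 ± 0.13 (0.64) and PSMC1, an ATPase subunit, by 0.78 ± 0.13 (0.50). PSMD14, the deubiquitinase of the regulatory particle, went from 138, 153 and 152 to 247, 200.4 and 207 CPM, a log2 fold change of 0.56 ± 0.07 (0.46). PSMD1, a scaffold subunit, rose by 0.61 ± 0.05 and by 0.56 without replicate 1. Catalytic subunits ranged from 0.14 ± 0.13 (-0.092) for PSMB5, not called, through 0.54 ± 0.17 (0.23, not called) for PSMB6 to 0.74 ± 0.15 (0.46) for PSMB7. PSMD11 at -0.13 ± 0.06 (-0.072) and PSMD2 at 0.08 ± 0.04 (0.080) did not pass.

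Regulators around the proteasome were more mixed. Of 30 tested partners 19 rose and 7 fell, or 13 and 6 without replicate 1, with medians of 0.43 and 0.25. Over all tested genes 28.7% rose and 24.9% fell, or 22% and 20.8% without replicate 1. PSMD5, listed here as an assembly chaperone of the base, was counted at no more than 0.109 CPM in any of the 6 libraries, where the 33 subunit genes had untreated means of 99.6 CPM or more. The annotation behind the counts is not given in the sources used here, so this value may not be the level of the gene. NFE2L1, the transcription factor that raises proteasome genes when degradation falls short, was itself lower, from 111, 104 and 109 to 43.5, 59.6 and 56.6 CPM. DDI2, the protease that activates it, went from 149, 139 and 131 to 32.6, 66.3 and 62.3 CPM. Both genes were lower in all 3 arsenite libraries, most so in replicate 1, with log2 fold changes of -1.02 ± 0.07 and -1.38 ± 0.21 and of -0.89 and -1.12 without that library. The AN1-type zinc finger genes went the other way. ZFAND2A, which encodes the arsenite-inducible proteasome partner AIRAP, was at 7.78, 7.43 and 7.81 CPM untreated and 169, 103 and 106 CPM after arsenite. It lay far above untreated in every library, with a log2 fold change of 4.04 ± 0.18 and 3.77 without replicate 1. ZFAND5 rose by 0.78 ± 0.07 (0.85) and ZFAND2B by 1.03 ± 0.20 (0.65). UBB, a polyubiquitin gene whose repeats resemble other ubiquitin genes, rose by 0.67 ± 0.13 (0.49). PITHD1, which shares the PITH domain of TXNL1, rose by 0.59 ± 0.09 (0.44), and the p97 ATPase gene VCP by 0.44 ± 0.05 (0.43).

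Ribosomal protein genes depended most on replicate 1. With all libraries 29 of 30 rose and the median was 0.62, beside 6 of 30 and 0.32 without it. RPL3 was the member with the largest change, from 1659, 1759.6 and 1913 to 4557, 3129.8 and 3240.1 CPM, a log2 fold change of 1.04 ± 0.13 (0.84). RPS19 was at 745, 769.6 and 894 CPM untreated and 2088, 971 and 1054 CPM after arsenite, so replicates 2 and 3 lay just above the untreated libraries and replicate 1 far above them. In replicate 1 the 30 genes lay a median of 0.74 log2 units above the mean of the other 2 arsenite libraries, the largest such value of the lists with at least 10 tested members. When the fit held the WT libraries only and left out replicate 1, 25 of the 30 were called higher, and 4 when that fit kept it. Pseudogene copies make the counts of these genes uncertain. Outside the list EEF2, an elongation factor, was among the largest gains in CPM, from 4162, 4119.9 and 4364 to 5643, 6721 and 6532 CPM, with replicate 1 the lowest.

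Of 20 tested genes for making ribosomes 7 rose and 4 fell with all libraries, and 6 and 4 without replicate 1, shares not far from the 28.7% and 24.9% of all tested genes. The medians were 0.06 and 0.04. NOP58 and NOP56, core proteins of the small nucleolar particles that methylate ribosomal RNA, rose by 1.57 ± 0.12 (1.34) and 1.04 ± 0.13 (0.80). POLR1A, the largest subunit of RNA polymerase I, was at 238, 217 and 227 CPM untreated and 53.9, 98.7 and 101 CPM after arsenite. It was lower in every arsenite library and lowest in replicate 1, with a log2 fold change of -1.43 ± 0.16 and -1.19 without it. UTP20, a processing factor with a long transcript, changed by -1.62 ± 0.21 and by -1.35. NCL was called lower at -0.29 ± 0.05 (-0.28), though not under a GC offset at -0.14, and NPM1 was not called at 0.06 ± 0.07 (0.015). SNHG17 and SNHG15, host genes of small nucleolar RNAs, were the largest rises among named lncRNA genes. SNHG17 went from 27.6, 24.2 and 25.8 to 858, 546 and 554 CPM and SNHG15 from 26.2, 29.9 and 32.2 to 529, 302 and 320.4 CPM. Both share annotated bases with small nucleolar RNAs, and both were highest in replicate 1, with log2 fold changes of 4.66 ± 0.16 (4.41) and 3.71 ± 0.17 (3.403).

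Transcripts of the mitochondrial genome fell. Of the 13 protein genes 12 were called lower and 0 higher with all libraries, and 11 and 0 without replicate 1, with medians of -1.20 and -1.16. MT-CO3, a subunit of cytochrome oxidase, was at 784, 843 and 656 CPM untreated and 204, 191 and 172 CPM after arsenite, a log2 fold change of -2.01 ± 0.10 (-2.07). MT-ATP6 and MT-ATP8, which share bases on 1 transcript, changed by -1.92 ± 0.14 (-1.82) and -2.21 ± 0.20 (-2.20). The arsenite libraries lay below all untreated libraries in each of these. Within the genome the change was uneven. MT-CO1 changed by -0.41 ± 0.11 (-0.38), MT-CO2 by -0.27 ± 0.11 (-0.41) and MT-ND4 by -0.44 ± 0.14 (-0.32, not called), where the groups of MT-CO2 and MT-ND4 overlapped. MT-CO2 also lost its call with the GC offset at -0.17. MT-ND5 was at 865, 918 and 617 CPM untreated and 156, 466 and 421 CPM after arsenite, with replicate 1 far below the other 2. Untreated replicate 3 was the lowest untreated library for all 13 genes. The share of all counts on the mitochondrial genome was 0.725% to 0.979% untreated and 0.589% to 0.695% after arsenite. The mitochondrial ribosomal RNAs moved the opposite way, from 0.107% to 0.135% of counts untreated to 0.267% to 0.274% after arsenite.

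ID2, an inhibitor of helix-loop-helix factors (ENSG00000115738, chr2:8678845-8684461 on the plus strand), was the largest fall by the rule for named genes. It was at 135, 141 and 133 CPM untreated and 16.6, 15.3 and 14.7 CPM after arsenite. The groups were far apart and tight, with a log2 fold change of -3.13 ± 0.08, an edgeR adjusted p of 5.6e-23 and -3.18 without replicate 1. ID genes are direct targets of BMP signals, and of 12 tested genes of that list 8 fell in both fits, while 1 rose with all libraries and 0 without replicate 1. The medians were -0.72 and -1.05. ID4 changed by -1.90 ± 0.07 (-1.85) and ID3, the most abundant of the family, by -0.63 ± 0.13 (-0.82). ID1 was at 14.0, 12.9 and 12.02 CPM untreated and 11.01, 5.63 and 5.12 CPM after arsenite, with replicate 1 between the untreated libraries and the other 2 arsenite libraries. Its log2 fold change was -0.82 ± 0.20, and -1.28 without replicate 1. Feedback inhibitors of the pathway fell too, with -1.26 ± 0.10 (-1.34) for SMAD6, -0.47 ± 0.07 (-0.40) for SMAD7 and -1.81 ± 0.12 (-1.94) for BAMBI. NOG, a secreted BMP antagonist, fell from 0.323 ± 0.0879 to 0.0211 ± 0.0276 CPM, too low for that rule. The 1 rise, HES1, which is rather known as a Notch target, lost its call without replicate 1.

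Other large falls were in developmental and signalling genes of modest level. GAS1, a hedgehog co-receptor, went from 14.6, 15.6 and 11.7 to 1.37, 1.92 and 2.06 CPM. OTX1 and HOXA13, homeobox transcription factors, changed by -2.97 ± 0.13 (-2.85) and -2.71 ± 0.12 (-2.60). FZD1, a Wnt receptor, was at 19.3, 18.6 and 15.7 CPM untreated and 2.53, 2.97 and 2.44 CPM after arsenite. FLRT3, an adhesion and FGF receptor partner, changed by -2.83 ± 0.18 (-2.57), RASL11B, a small GTPase gene, by -2.67 ± 0.15 (-2.67) and ETAA1, an activator of the ATR kinase, by -2.93 ± 0.15 (-2.90). SKIDA1 changed by -2.83 ± 0.16 (-2.76), MFSD5 by -2.83 ± 0.14 and FAM78A by -2.65 ± 0.08. In none of these did the groups overlap, and the values without replicate 1 ran from -3.05 for MFSD5 to -2.55 for FAM78A. CASC11, a lncRNA gene that overlaps MYC on the opposite strand, fell, at -2.66 ± 0.11 (-2.60), close to MYC. How strand entered the counting is not given in the sources used here, so reads of this pair may not be separate. PCAT1 and THRIL, the next lncRNA genes, changed by -1.66 ± 0.31 and -1.64 ± 0.22, and by -1.33 and -1.41 without replicate 1. Among abundant mRNAs TUBB, a tubulin, fell from 1414, 1449 and 1466 to 766, 713 and 679 CPM. SCD, which desaturates fatty acids, changed by -0.59 ± 0.13, and by -0.38 without replicate 1. CCNL1, a cyclin that acts in splicing, was instead among the largest rises, from 23.7, 23.3 and 22.2 to 504, 468 and 448 CPM.

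Cell cycle genes shifted in small steps. In the list of replication licensing and S phase 4 of 20 rose and 11 fell, or 4 and 9 without replicate 1, with medians of -0.20 and -0.13. PCNA, the sliding clamp, was at 205, 224 and 225 CPM untreated and 142, 107 and 115 CPM after arsenite, with a log2 fold change of -0.84 ± 0.08 (-0.97). CCNE2 changed by -0.85 ± 0.09 (-0.75) and RRM2, a subunit of ribonucleotide reductase, by -0.64 ± 0.06 (-0.56), while CDT1, a licensing factor, rose by 0.76 ± 0.12 (0.57). Among 22 genes of G2 and mitosis 7 rose and 9 fell, or 5 and 8 without replicate 1. Of all tested genes 28.7% rose and 24.9% fell, or 22% and 20.8% without replicate 1. CCNB1, the mitotic cyclin, went from 340.1, 359.9 and 353 to 208, 199 and 201 CPM and CDC25C, its activating phosphatase, from 24.4, 25.1 and 26.4 to 46.1, 50.1 and 51.9 CPM. Members of each list thus changed in both directions.

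The p53 list held rises and falls in like number. With all libraries 7 of 19 rose and 6 fell, and 8 and 6 without replicate 1. HEK293T cells carry viral proteins that hold p53 inactive. MDM2 fell from 122, 122 and 108 to 38.7, 65.0 and 60.4 CPM and RRM2B changed by -1.12 ± 0.17 (-0.87). PLK3, a stress kinase, rose by 2.23 ± 0.13 (2.08), DDB2, a DNA damage sensor, by 1.33 ± 0.10 (1.24) and CDKN1A, the inhibitor p21, by 0.85 ± 0.13 (0.81), from 5.96 ± 0.376 to 10.7 ± 0.504 CPM. Sterol genes were also divided, with 5 of 17 higher and 9 lower, or 7 and 6 without replicate 1. INSIG1, which retains the sterol sensor in the endoplasmic reticulum, was at 72.7, 70.7 and 68.3 CPM untreated and 31.2, 31.2 and 30.6 CPM after arsenite. SQLE, a rate-controlling enzyme of sterol synthesis, changed by -1.04 ± 0.10 (-0.89), whereas MVD, another enzyme of that route, rose by 0.78 ± 0.16 (0.50). KRAB zinc finger genes, a large family of repressors, gave 7 higher and 11 lower of 29, or 9 and 7 without replicate 1. Beside the p53, sterol and KRAB counts, the shares of all tested genes were 28.7% higher and 24.9% lower. Without replicate 1 they were 22% and 20.8%. ZNF460 rose by 1.65 ± 0.25 (1.95) and ZNF443 changed by -1.15 ± 0.15 (-1.01).

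Markers of the cell line were checked beside these results. LIN28B, VIM, LMNB1 and CDH2 stood at 31.1 CPM or more in every library, and KRT8 and KRT18 at 13.7 CPM or more. PAX2, NEFM and NEFL, often listed for HEK293 cells, did not exceed 1.88 CPM in any of the 6 libraries. After arsenite 4 of the 9 markers were lower, LIN28B among them at -0.91 ± 0.22 (-0.62), and 2 were higher, or 4 and 1 without replicate 1. Among all tested genes 24.9% were lower and 28.7% higher, or 20.8% and 22% without replicate 1, and a list of 9 is short. Of 10 markers of other lineages 8 were too low to test, with 0 to 33 counts over the 3 libraries of a group. COL3A1 at no more than 17.4 CPM and GFAP at no more than 3.56 CPM were the exceptions. The summed level of the HEK293T markers was 1058 to 1095 CPM untreated and 961, 958 and 965 CPM after arsenite. A lower level per cell and fewer cells with a transcript cannot be told apart in these bulk samples.

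The genes that set arsenite replicate 1 apart were chosen by their distance from replicates 2 and 3, so their values are a description. BOLA2B was at 17.4, 0.934 and 0.957 CPM in arsenite replicates 1, 2 and 3 and at 0.826, 0.926 and 1.499 CPM untreated. It has a near-identical copy, BOLA2, and its reads may be shared with it. Its fitted log2 fold change of 2.60 ± 0.72 turned to -0.21 without replicate 1. CCDC85B, HMGN5 and PHKG1, all with the groups overlapping, were likewise high in that library alone, with HMGN5 at 92.2, 30.9 and 35.4 CPM. ENSG00000284526, a gene with no symbol that overlaps ST6GALNAC2 on its strand and SNHG16 on the other, was the remaining one, at 96.4, 35.0 and 31.8 CPM. UTRN, a giant cytoskeletal protein, was low in that library at 9.14, 35.2 and 35.7 CPM, and ZKSCAN8 at 10.0, 39.8 and 39.0 CPM. ENSG00000288841, ENSG00000289282 and ENSG00000273217 completed the lowest 5, and they share exon bases on the same strand with PRRC2B, with PRRC2A, and with FNIP1 and RAPGEF6. The 4 named with a symbol among the high genes had transcripts of 1012, 963, 2099 and 2226 bases in the order BOLA2B, CCDC85B, HMGN5 and PHKG1. UTRN and ZKSCAN8 had transcripts of 12918 and 7419 bases.

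The study asked whether the TXNL1 variant alters the response, so the change in the WT line was set against that in the other 3 lines, each with its own untreated libraries. In edgeR's interaction test 0 of 22486 genes passed at an adjusted p under 0.05 against the vector, D162R R234D or SxxS line. At an unadjusted p under 0.05 there were 1938, 3603 and 1391 genes (8.62%, 16% and 6.19%), and 811, 1636 and 707 (3.61%, 7.28% and 3.14%) without replicate 1. DESeq2 called 0, 171 and 3 genes in the same order. The count against D162R R234D depended on which libraries the fit held, both inside and outside the comparison. It was 988 when WT hydrogen peroxide replicate 2 was left out, and 313 when arsenite replicate 1 was left out as well. The peroxide library enters the shared spread only and stood apart with an SD of 0.606. In arsenite replicate 1 the 988 genes lay a median of 0.33 log2 units above the mean of replicates 2 and 3. The 313 genes lay at 0.11 and all tested genes at -0.02. Untreated D162R R234D replicate 3 had an SD of 0.168, the highest of the other 34 libraries. The count was 4 (0.0178%) without arsenite replicate 1 alone, namely MAT2A, LRIF1, DHX37 and RSRC2. MAT2A, LRIF1 and RSRC2 are named after their values were seen.

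NFE2L2 had the smallest interaction p against D162R R234D. It rose by 1.19 ± 0.06 (1.25) in the WT line and by 1.599 ± 0.06 in the D162R R234D line, a difference of -0.41 ± 0.08 with an edgeR adjusted p of 0.13. Over 25 alternatives that adjusted p ran from 0.00069 to 1 and was under 0.05 in 5 of them, and the difference kept its sign in all 25. ULBP1, a ligand of the natural killer receptor NKG2D, rose by 0.63 ± 0.14 (0.70) in the WT line and by 1.65 ± 0.14 in the other. DHX37, a helicase of ribosome assembly, changed by -0.30 ± 0.06 (-0.23) and -0.71 ± 0.06. Their differences of -1.02 ± 0.20 and 0.41 ± 0.08 did not pass at an edgeR adjusted p of 0.13 each. Over the 25 alternatives these adjusted p ran from 0.0028 to 1 for ULBP1 and from 0.00012 to 1 for DHX37. In each of these genes the change had the same direction in both lines and a smaller size in the WT line. Against SxxS the named genes were CTH, MT-ATP6 and ENSG00000229337. CTH rose by 2.74 ± 0.07 (2.76) in the WT and by 3.13 ± 0.07 in the SxxS line. MT-ATP6 changed by -1.92 ± 0.14 (-1.82) and -1.08 ± 0.13, and with MT-CYB and MT-ND1 it made up the 3 genes that DESeq2 called. Against the vector line the named genes were NES, SEBOX and ENSG00000286873, of which SEBOX and ENSG00000286873 did not exceed 0.438 CPM in the WT line. NES was not called in the WT line at -0.09 ± 0.13 (0.036) and stood at 0.75 ± 0.13 in the vector line.

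The named lists were set side by side in the 4 lines without a test of their difference. Of 33 proteasome genes 28 rose in the WT line, or 23 without replicate 1, beside 18 in the vector, 15 in the D162R R234D and 21 in the SxxS line. Of 30 ribosomal protein genes 29 rose in the WT line, or 6 without replicate 1, beside 2, 1 and 3. The WT count was 26 without arsenite replicate 1 and hydrogen peroxide replicate 2, so these counts follow the shared spread as well as the changes. Counts of the other lines in that fit are not given, so the 26 cannot be set beside 2, 1 and 3. Ribosomal protein medians were 0.62 in the WT line, or 0.32 without replicate 1, beside 0.19, 0.16 and 0.25. Proteasome medians were 0.53, or 0.30, beside 0.27, 0.24 and 0.32. ATF4 targets gave 15 higher in each of the 4 lines, and immediate early genes gave 19, 19, 19 and 18. Heat shock genes gave 18, 19, 18 and 19. Of the tested genes 43.4%, 44% and 43.6% were called in the vector, D162R R234D and SxxS lines, beside 53.6% in the WT line, or 42.8% without replicate 1. The mitochondrial medians were -1.20 in the WT line, -0.97 in the vector, -0.73 in the D162R R234D and -0.48 in the SxxS line.

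**Figure D5:**
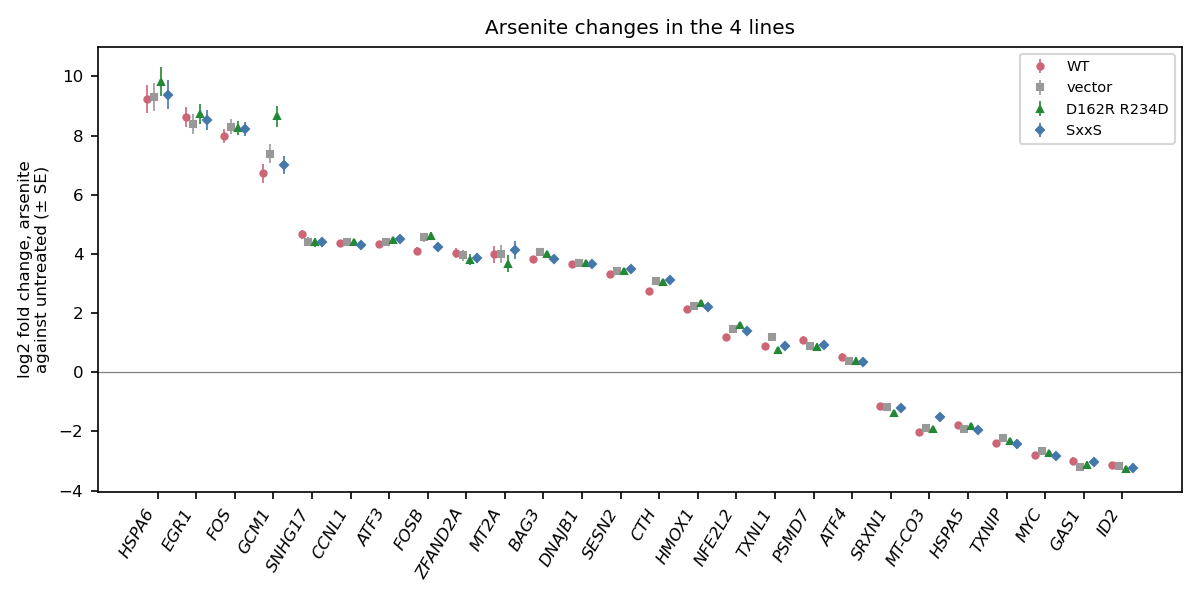
Log2 fold change of arsenite against untreated (y axis, points with SE bars) for 26 named genes (x axis) in the WT, vector, D162R R234D and SxxS lines, each from 3 libraries per group. The order of the genes is alike in the 4 lines, and GCM1 has the widest range, with 6.73 in the WT and 8.65 in the D162R R234D line.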

How the data were processed

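Strand-specific RNA libraries from HEK293T TXNL1 KO cells were sequenced as 100-base pairs. Per the study's methods the authors aligned reads to the GRCh38 primary assembly with QuasR. The deposited values are raw counts per gene of 36 libraries, and DESeq2 is named in the submitters' processing notes. The annotation release, the strand setting and the treatment of shared reads are not given in the sources used here. Nothing was normalized before deposit.

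Groups came from the labels, with 3 libraries in each of 12 groups. Genes with at least 10 counts over the 3 untreated vector libraries were tested, which left 22486 of 42726 genes with any count. One edgeR 4.0.16 quasi-likelihood model (robust, TMM scaling, R 4.3.3) held a mean for each group over all 36 libraries, so the spread is shared (biological coefficient of variation 12.4%). P-values were adjusted by Benjamini-Hochberg over all tested genes, and the interaction tested WT against each other line in the same model. The code was tested on simulated counts. Depths of 42072410 to 174119002 counts limit precision less than the spread between libraries. Gene types, transcript lengths and positions came from GENCODE 44 (GRCh38), in which 61369 of 61587 identifiers were found, and promoters from RefSeq GRCh38.p14.

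The libraries, gene lists and rules were chosen with earlier results of these data known. Named genes were TXNL1, ATF4, NFE2L2, HSF1, MTF1 and list members. Added to them were the 12 largest rises and falls among protein-coding genes, the 3 among lncRNA genes and the 5 in CPM. These had to be called with and without arsenite replicate 1, not overlap between groups and reach a mean of 5 CPM in the higher group. The rule also took the 5 protein-coding genes highest and lowest in replicate 1 and the 3 smallest p of each interaction. Alternatives were DESeq2 1.42.0, other scalings, filters and fold thresholds, GC content and transcript length offsets, a replicate block, halved counts, only the groups compared, and each library left out. The length offset and the fit of the groups compared without replicate 1 were added after the data had been seen. Results for some items are not reported here.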

Additional observations from a re-analysis of the deposited data

How the results depend on the processing

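Arsenite called 12060 genes in the WT line, and 9618 to 12444 when any 1 of the 6 libraries was left out, the lowest without arsenite replicate 1. Without WT hydrogen peroxide replicate 2, which enters the shared spread only, 13227 genes were called, and 11902 without arsenite replicate 1 as well. A test against a fold change over 1.5 called 3317. A fit of only the groups compared called 6416, or 11205 when that fit left out arsenite replicate 1. Interaction calls were 0 against each line. Against the vector line a GC offset gave 1, as did the GC offset with a replicate block, and leaving out both outlying WT libraries (arsenite replicate 1 and hydrogen peroxide replicate 2) gave 6. Leaving out 1 compared library gave 0 there and 0 against SxxS, where DESeq2 gave 3. Against D162R R234D the count was 171 by DESeq2, 17 with the GC offset, 10 with the GC offset and replicate block, 9 with the transcript length offset, 988 without hydrogen peroxide replicate 2 and 313 without both libraries. It ran from 0 to 63 when 1 compared library was left out, with 63 without arsenite replicate 3 and 4 without arsenite replicate 1 or 2. The replicate block alone called 11891 genes for arsenite and 0 interactions. Same-numbered arsenite and untreated libraries deviated with correlations of -0.50, -0.06 and -0.41, and libraries of unlike number with -0.46 to 0.51. The arsenite deviations were taken from a mean that includes replicate 1, so these values cannot show whether the numbers are pairs. The numbers were not taken as pairs. Of 190 named genes, 117 kept their side of the threshold in all of the 21 alternatives that tested them. Of these, 107 were called in the same direction in every such alternative. Changes of sign were counted only where a gene was called with all libraries or in the alternative. Signs turned for BOLA2B, which ran from -0.21 without arsenite replicate 1 to 3.10 without arsenite replicate 3 and stood at -0.24 in the fit of the groups compared without it and -0.24 without both libraries. They turned for HMGN5, from -0.011 without arsenite replicate 1 to 0.93 without replicate 2, and -0.032 and -0.031 in those other settings, and for HSF1 at -0.030 with the GC offset and -0.030 with the GC offset and replicate block. The causes were not tested.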
